A study of Mus musculus with 6 samples.

Results

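Hspa5, Herpud1, Sdf2l1, Creld2 and Syvn1 encode chaperones of the endoplasmic reticulum (ER) and parts of its degradation machinery, and they were 5 of the 1228 genes in a table of expression values from Bv2 cells, an immortalised mouse microglial line. They were picked by symbol with their difference between the groups already known, so those differences are given as a description and carry no test. Of the 6 libraries, 3 came from cells after deprivation of oxygen and glucose with reperfusion (OGD/R), a culture model of ischemia, and 3 from control cells, all labelled wild type (WT). Per the labels' protocols, OGD/R cells had 30 min in nitrogen, 2 h at 1% oxygen in medium free of glucose and serum, and 24 h of reperfusion in standard medium with serum. The protocol also opens with an infection 72 h earlier and gives no agent. It does not state which samples were infected or whether control cells had a medium change, so these steps and OGD/R cannot be told apart. The labels do not tie replicates to separate cultures, so the p-values rest on the spread between these 6 samples and that spread may be technical.

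Proteins bound for the cell surface or for secretion fold in the ER with the help of chaperones, and those that fail are pulled back into the cytosol and destroyed, a process called ER-associated degradation (ERAD). When unfolded proteins accumulate, the sensors IRE1, PERK and ATF6 start the unfolded protein response, which raises the transcription of chaperone and ERAD genes. Many of these genes carry the ER stress response element (ERSE) near their start site, where the factor NF-Y binds the CCAAT part and ATF6 or XBP1 the CCACG part. In microglia, which secrete cytokines and complement, the response is studied as part of the reaction to ischemia. Hspa5 encodes BiP, the main Hsp70 chaperone of the ER and the protein that holds the sensors inactive. Sdf2l1 and Creld2 encode smaller soluble ER proteins, of which Sdf2l1 works with an ER J protein to assist BiP, and Creld2 is a stress-induced protein with EGF-like repeats. Syvn1 encodes HRD1, the membrane ubiquitin ligase of ERAD, and Herpud1 encodes HERP, a stress-induced membrane protein of the HRD1 complex.

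The promoters are shown because the 5 genes were all lower in OGD/R and 4 of them held a letter match to an ERSE form. All 5 genes matched a promoter in the RefSeq table for GRCm38.p6. Each line gives the 160 bases that end just before the RefSeq start site, 5′ to 3′ on the strand of the gene, and capitals mark matches on either strand to ERSE, which is CCAAT and CCACG with any 9 bases between them, to ERSE-II, which is ATTGG and CCACG with any 1 base between them, or to either one without its last letter. In Creld2 an ERSE on the opposite strand and an ERSE-II without its last letter overlap and form 1 run of capitals.
Hspa5 (chr2:34771930-34772089, plus strand): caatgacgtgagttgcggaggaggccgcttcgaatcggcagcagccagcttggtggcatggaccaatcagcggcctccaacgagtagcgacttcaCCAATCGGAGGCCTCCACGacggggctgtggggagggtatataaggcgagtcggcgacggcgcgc
Herpud1 (chr8:94386269-94386428, plus strand): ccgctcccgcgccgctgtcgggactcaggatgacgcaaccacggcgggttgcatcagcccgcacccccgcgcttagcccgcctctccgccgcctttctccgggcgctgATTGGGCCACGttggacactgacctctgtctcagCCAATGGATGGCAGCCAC
Sdf2l1 (chr16:17132384-17132543, minus strand): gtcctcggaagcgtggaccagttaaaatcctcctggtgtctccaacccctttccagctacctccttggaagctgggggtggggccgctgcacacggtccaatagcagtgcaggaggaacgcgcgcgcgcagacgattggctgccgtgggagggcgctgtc
Creld2 (chr15:88819486-88819645, plus strand): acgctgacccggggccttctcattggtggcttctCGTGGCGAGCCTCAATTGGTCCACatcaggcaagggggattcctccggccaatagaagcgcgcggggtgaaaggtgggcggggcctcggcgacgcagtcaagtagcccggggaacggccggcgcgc
Syvn1 (chr19:6046416-6046575, plus strand): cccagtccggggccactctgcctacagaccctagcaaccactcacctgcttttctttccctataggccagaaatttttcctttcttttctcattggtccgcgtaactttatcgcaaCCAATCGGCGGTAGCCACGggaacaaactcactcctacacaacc

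Over the 250 bases before the start site, the full ERSE letters were found in 3 of the 5 promoters, at -65 to -47 in Hspa5, at -44 to -26 in Syvn1 and, on the opposite strand, at -126 to -108 in Creld2. Of all 32851 RefSeq promoter windows of the same length, 37 held the full ERSE letters, or 0.113%. Positions depend on the RefSeq start site. In GENCODE M21 Hspa5 starts earlier, at 34771970, so its ERSE at chr2:34772025-34772043 lies inside the gene by that annotation. Herpud1 held ERSE-II at -52 to -42, which 10 of all windows, or 0.0304%, also held, and an ERSE without its last letter at -18 to -1, found in 0.320% of windows. The letter after -1 lies outside the window and was not read, so whether this Herpud1 match is a full ERSE is not known. Sdf2l1 held neither ERSE nor ERSE-II nor either one without its last letter in this window, which says only that these letters are not there. All 5 promoters held the shorter CCAAT letters at least once, against 33.8% of all windows, and every ERSE and ERSE-II match contains them. Counted by gene, with a match in any window of the gene, they were held by 44.0% of the other lower genes of the table (168 of 382). Of the higher genes 48.6% held them (188 of 387). A gene with several windows has more chances of a match, so shares of genes and shares of windows are not compared. Hspa5 also held the UPRE letters TGACGTG at -157 to -151, found in 1.65% of all windows. By gene, 1.57% of the other lower genes and 3.10% of the higher genes held the UPRE letters. Herpud1 held the letters TTGCATCA of the amino acid response element at -112 to -105, found in 0.791% of all windows. By gene, 2.36% of the other lower genes and 1.55% of the higher genes held the letters of this element. These are letter matches on both strands and do not show binding. Many genes of the unfolded protein response carry ERSE and the 5 were picked by symbol. Their share against all windows is therefore a description and not a result of these data.

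**Figure D1:**
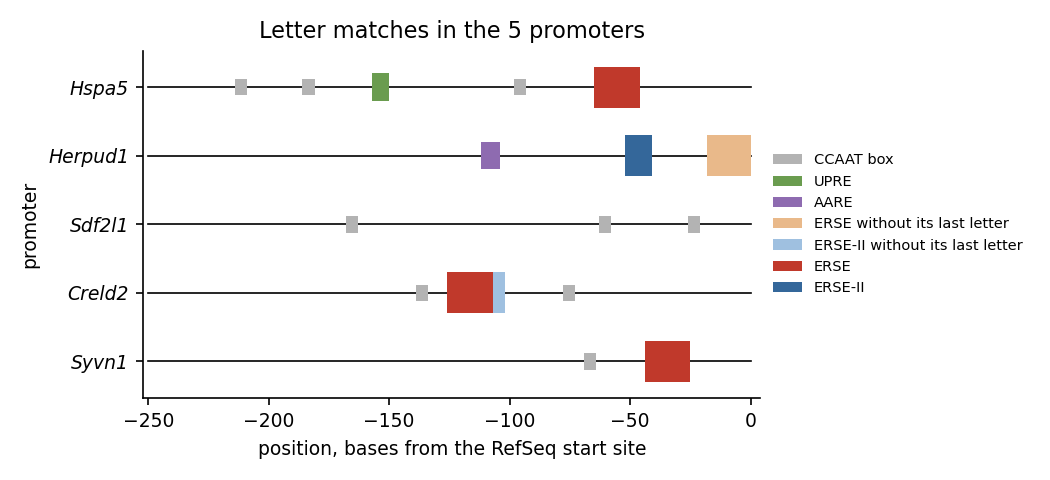
Positions of letter matches in the 250 bases before the RefSeq start site of each of the 5 genes, in bases from the start site; coloured blocks are the motifs named in the legend, and a CCAAT box inside a longer match is covered by it. Full ERSE matches lie in Hspa5, Creld2 and Syvn1, ERSE-II lies in Herpud1, and Sdf2l1 has CCAAT boxes alone.

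The same ERSE letters were present in the promoters of 4 of the 33 other listed genes of the table with a promoter entry, described below, namely Calr, Dnajc3, Hsp90b1 and Pdia6. Over all genes of the table with a promoter entry, 5 of 382 other lower genes and 0 of 387 higher genes held it. The 4 listed genes just named are among these 5 lower genes. The lists hold genes of the unfolded protein response, many of which carry ERSE, so nothing is read from these counts. The fifth of these lower genes was Alg12, a mannosyltransferase of N-glycosylation that was not listed and is named after its values were seen. Alg12 lies head to head with Creld2, 328 nt away on the minus strand, and the match is the same stretch of DNA in both promoters (chr15:88819520-88819538). Alg12 had 3.12, 3.81 and 3.92 FPKM in OGD/R libraries and 9.58, 11.12 and 9.63 FPKM in control libraries. It fell in OGD/R with a log2 difference of -1.27 (limma with Benjamini-Hochberg adjustment over 852 genes, adjusted p = 0.00015).

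All 5 genes had lower values in every OGD/R library than in any control library. Values are FPKM, fragments per kilobase of transcript scaled to the fragments of the library, so they can be compared between genes. Group means were 5.26-fold lower in OGD/R for Sdf2l1, the smallest difference of the 5, and 10.5-fold lower for Herpud1, the largest. In a bulk sample, fewer cells that express a gene and less of its RNA per cell cannot be told apart. The table itself holds genes picked for a difference on these samples, and the comparison that chose the 5 genes is the one described, so nothing is read from this separation. Of all 1228 genes 46.5% lay lower in OGD/R without overlap between the groups, and 13.8% were at least 4-fold lower in group means.

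Hspa5, the chaperone BiP (ENSMUSG00000026864, chromosome 2 of GRCm38, 34771970 to 34777547, plus strand), had 233.45, 246.98 and 215.51 FPKM in OGD/R libraries and 1602, 1694 and 1788 FPKM in control libraries. The 3 OGD/R values lay close together and far below the lowest control value. The means were 232 ± 15.8 FPKM in OGD/R and 1695 ± 92.9 FPKM in control (SD, n = 3 each), 7.31-fold lower in OGD/R. Hspa5 was the most abundant gene of the table in control, at rank 1 of 1228, and stood at rank 4 in OGD/R. It made up 1.66% to 1.87% of the table's summed FPKM in OGD/R libraries and 9.10% to 10.1% in control libraries.

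Sdf2l1, the BiP-assisting ER protein (ENSMUSG00000022769, chromosome 16, 17130138 to 17132383, minus strand), had 39.00, 48.60 and 33.33 FPKM in OGD/R libraries and 188.61, 222.52 and 224.82 FPKM in control libraries. Among OGD/R libraries it had the widest relative spread of the 5, with an SD of 19.1% of the mean there and of 9.56% in control. Means were 40.3 ± 7.72 FPKM in OGD/R and 212 ± 20.3 FPKM in control (SD, n = 3 each). Its relative Sdf2, a gene with a similar product, was not in the table and is not analysed here.

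Creld2, the stress-induced EGF-repeat protein (ENSMUSG00000023272, chromosome 15, 88819646 to 88826683, plus strand), had 19.60, 13.92 and 18.59 FPKM in OGD/R libraries and 98.27, 202.69 and 194.74 FPKM in control libraries. Control replicate 1 stood at 0.495 of the mean of the other two control libraries, the lowest such ratio of the 5 genes. Means were 17.4 ± 3.03 FPKM in OGD/R and 165 ± 58.1 FPKM in control (SD, n = 3 each), 9.51-fold lower in OGD/R. Without control replicate 1 the control mean was 199 FPKM and the level in OGD/R 11.4-fold lower. Without it the other 4 genes were lower by 7.50-fold for Hspa5, 10.7-fold for Herpud1, 5.55-fold for Sdf2l1 and 7.20-fold for Syvn1.

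Herpud1, the stress-induced partner of the ligase (ENSMUSG00000031770, chromosome 8, 94386438 to 94395377, plus strand), had 33.47, 30.73 and 32.35 FPKM in OGD/R libraries and 321.74, 339.76 and 351.40 FPKM in control libraries. It had the smallest relative spread of the 5, 4.28% of the mean in OGD/R and 4.43% in control. Means were 32.2 ± 1.38 FPKM in OGD/R and 338 ± 14.9 FPKM in control (SD, n = 3 each). An antisense gene, Gm15890, overlaps its first 535 nt. Gm15890 was listed at 0 in the 3 OGD/R libraries and had 1.02, 1.26 and 1.36 FPKM in control libraries. No source used here tells whether the counting was stranded, so reads of the overlap cannot be assigned to either gene, and the level of Gm15890 is uncertain.

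Syvn1, the ubiquitin ligase HRD1 (ENSMUSG00000024807, chromosome 19, 6046576 to 6053712, plus strand), was the least abundant, with 5.85, 6.24 and 7.79 FPKM in OGD/R libraries and 40.87, 47.32 and 48.08 FPKM in control libraries. Means were 6.63 ± 1.03 FPKM in OGD/R and 45.4 ± 3.96 FPKM in control (SD, n = 3 each), 6.85-fold lower in OGD/R. By level it stood at rank 331 of the table in OGD/R and at rank 67 in control. The end of Syvn1 overlaps the gene Mrpl49 on the other strand by 91 nt, and Mrpl49 was not in the table.

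**Figure D2:**
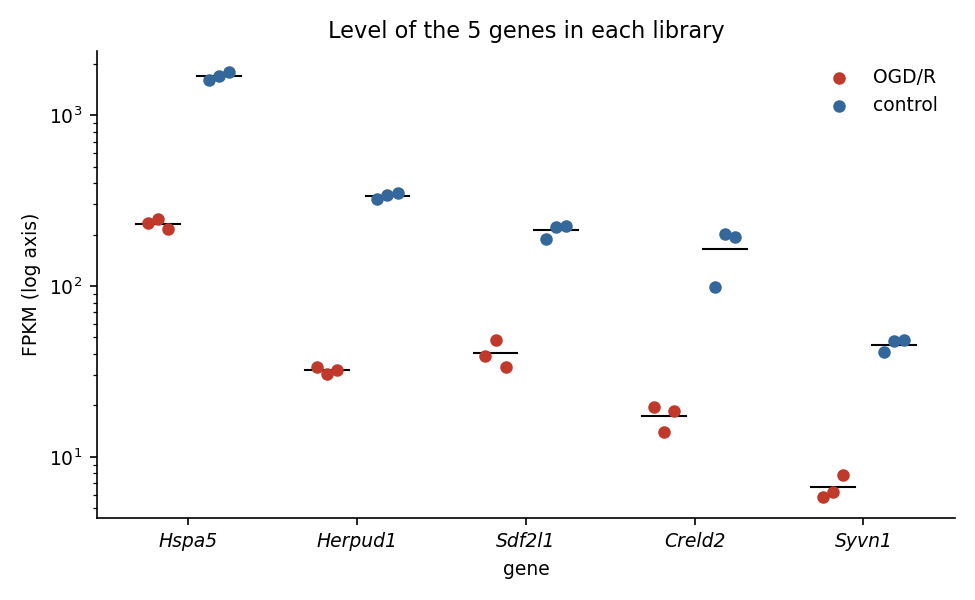
FPKM (log axis) of the 5 genes in each library, with OGD/R left of control for each gene; points are libraries and black lines are group means. All OGD/R points lie below all control points of the same gene, and control replicate 1 of Creld2, at 98.27 FPKM, lies below the other two control libraries.

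The order of levels differed between the groups at 1 place. In OGD/R it ran Hspa5, Sdf2l1, Herpud1, Creld2, Syvn1, and in control Hspa5, Herpud1, Sdf2l1, Creld2, Syvn1. Sdf2l1 was above Herpud1 in each OGD/R library, though by 33.33 against 32.35 FPKM in OGD/R replicate 3, and below it in each control library. In control, Creld2 and Sdf2l1 are neighbours whose ranges overlapped, at 98.27 to 202.69 and 188.61 to 224.82 FPKM, while the other neighbours did not overlap in control. In OGD/R the neighbours Sdf2l1 and Herpud1 overlapped narrowly, at 33.33 to 48.60 and 30.73 to 33.47 FPKM, and the other neighbours did not. Relative to Hspa5 in the same library, Herpud1 stood at 13.9% ± 1.33 in OGD/R and 19.9% ± 0.243 in control (SD, n = 3 each). Sdf2l1 stood at 17.3% ± 2.16 of Hspa5 in OGD/R and 12.5% ± 0.688 in control. Syvn1 stood at 2.88% ± 0.634 of Hspa5 in OGD/R and 2.68% ± 0.122 in control. Creld2 stood at 7.55% ± 1.66 in OGD/R and 9.66% ± 3.11 in control, and for both genes the ranges of the groups overlapped.

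**Figure D3:**
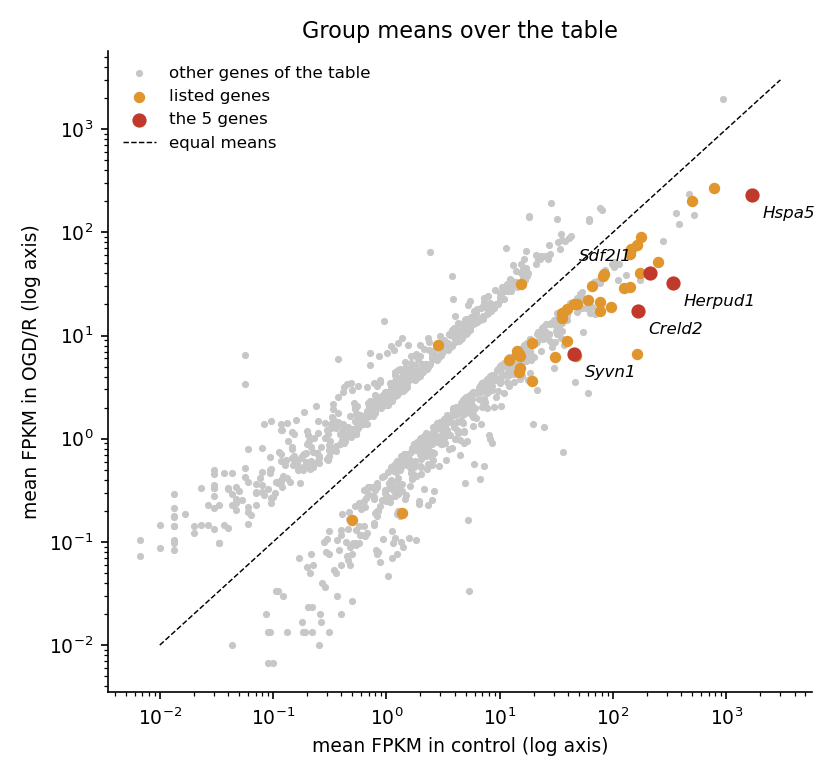
Mean FPKM in OGD/R (y, log axis) against mean FPKM in control (x, log axis) for the genes of the table, without 44 genes listed at 0 in all libraries of a group; the dashed line marks equal means. The 5 genes lie below the line, with Hspa5 at the far right at 1695 FPKM in control; the empty band around the line shows that the table holds no gene with nearly equal means.

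The deviation of each library from its group mean does not use the difference between the groups. Over the 6 deviations on the log2(FPKM + 1) scale, Pearson's r was 0.937 between Hspa5 and Sdf2l1 and 0.868 between Herpud1 and Creld2, and from -0.233 to 0.560 for the other 8 pairs. These are descriptions over 6 libraries with shared group means. Pairs of other genes were not examined, and the part of shifts of whole libraries in these correlations was not tested. All 5 genes were at their lowest control value in control replicate 1, with deviations from -0.07 for Herpud1 to -0.67 for Creld2. This was not particular to them. Over all tested lower genes, control replicate 1 had a median of 0.742 of the mean of control replicates 2 and 3 for genes with less than 2500 nt of exons. For longer ones the median was 0.873. In OGD/R, replicate 2 was highest for Hspa5 and Sdf2l1 and lowest for Herpud1 and Creld2, and replicate 3 was highest for Syvn1.

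Among 418 other genes with a mean of at least 5 FPKM, those whose 6 deviations followed the mean of the 5 genes most closely were Ccdc134, with r = 0.998, Tcea1-ps1, with 0.997, Pdia6, with 0.988, 1810014B01Rik, with 0.981, and Kif20b, with 0.980. Creld2 and control replicate 1 weigh most in that mean. Ccdc134, a coiled-coil gene, had 2.17, 1.99 and 2.03 FPKM in OGD/R libraries and 7.29, 11.63 and 11.86 FPKM in control libraries. Pdia6, a protein disulfide isomerase of the ER, had 61.32, 59.89 and 64.50 FPKM in OGD/R libraries and 100.01, 158.45 and 165.59 FPKM in control libraries. Tcea1-ps1 is a processed copy of another gene, so its reads are uncertain. Kif20b, a mitotic kinesin, was higher in OGD/R, with means of 19.5 FPKM in OGD/R and 7.07 FPKM in control.

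In control replicate 1 genes with a short exon length were by median lower than genes with a long one, relative to control replicates 2 and 3. This length is the union of a gene's exons and may differ from that of the transcript present. The other libraries were not examined for this. Of the 37 other listed genes that were tested, the 10 with less than 2500 nt of exons had in control replicate 1 a median of 0.728 of the mean of control replicates 2 and 3, and the 27 longer ones a median of 0.910. The ratio and exon length had a Spearman correlation of 0.532 over these 37 genes, which share the libraries, so that no test is given. Over all tested lower genes the medians were 0.742 for 214 short and 0.873 for 239 long genes, and over tested higher genes 0.879 for 123 short and 1.02 for 276 long genes. Creld2, with 1366 nt, was at 0.495, but Sdf2l1, with 1108 nt, was at 0.843, close to Syvn1, with 4859 nt, at 0.857. Hspa5, with 4229 nt, was at 0.920 and Herpud1, with 2333 nt, at 0.931. The part of exon length in the values of Creld2 was not tested.

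**Figure D4:**
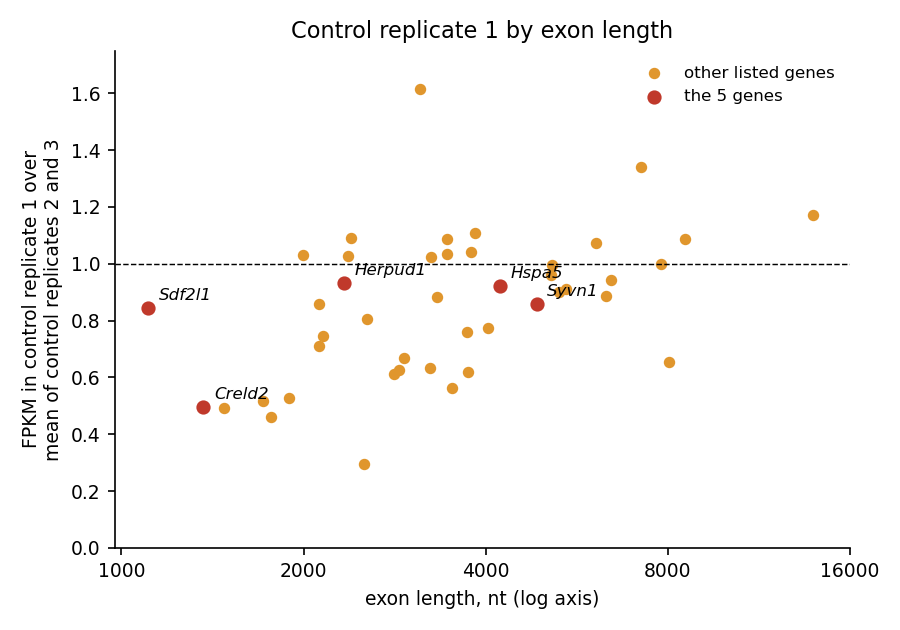
FPKM in control replicate 1 over the mean of control replicates 2 and 3 (y) against exon length in nt (x, log axis) for the 5 genes and the 39 other listed genes in the table; the dashed line marks 1. Creld2 lies at 0.495 among other short genes, while the other 4 genes lie between 0.843 and 0.931.

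To place the 5 genes in their pathway, 226 other genes in 9 lists of ER protein handling, ER stress signalling and cytosolic chaperones were looked up, and 39 were in the table. Of these, 37 had a mean of at least 1 FPKM and were tested with limma on log2(FPKM + 1). Lower in OGD/R at an adjusted p under 0.05 were 35 of the 37, against 432 of all 852 genes tested, or 50.7%. Higher were 2, Stim2 and Slc7a11, against 46.6% of all genes tested. The median log2 difference was -1.21 over the 37 genes and -0.68 over all genes tested. Lower and higher genes were near in number, and the table holds none with nearly equal means. The median over all genes tested thus lies among the smallest falls, and a list of mostly lower genes tends to lie below it. Nothing is read from the distance between these medians. The other listed genes are not analysed here, so these counts say nothing of how many members of a pathway changed in the cells. Since the table was picked on the same samples, the p-values of these genes are not independent evidence.

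Of 23 other chaperones and co-chaperones 8 were in the table, 7 were tested and all 7 fell, with a median log2 difference of -2.08, the lowest median of the 8 lists with a tested gene. Manf, a stress-induced secreted protein that binds BiP, had 17.85, 17.86 and 21.16 FPKM in OGD/R libraries and 62.82, 106.31 and 117.08 FPKM in control libraries (limma log2 difference -2.23 ± 0.24 SE, adjusted p = 0.00023). The J proteins Dnajb9 and Dnajc3, which hand clients to BiP, fell to 6.24 ± 1.32 and 17.2 ± 1.35 FPKM in OGD/R, against 30.7 ± 3.93 and 76.8 ± 3.66 FPKM in control (SD, n = 3), and Dnajb11, another J protein, fell to 22.0 ± 1.92 FPKM in OGD/R, against 60.6 ± 14.7 FPKM in control. Hyou1, the large Hsp70-related exchange factor of BiP, had 44.83, 43.12 and 32.64 FPKM in OGD/R libraries and 208.65, 150.52 and 160.65 FPKM in control libraries. Control replicate 1 was thus the highest control value for Hyou1, with 7230 nt of exons, and the lowest for Manf, with 3524 nt. Both genes are longer than 2500 nt. Calr, the lectin chaperone calreticulin, fell to 268 ± 16.8 FPKM in OGD/R, against 782 ± 193 FPKM in control. The adjusted p was 0.00062 for Dnajb11, 0.00052 for Calr, 0.00012 for Hyou1, 0.00011 for Dnajb9 and 4.4e-05 for Dnajc3 in limma. The smallest fall of the list was that of Hsp90b1, the ER Hsp90, named after its values were seen, with 201 ± 15.6 FPKM in OGD/R and 494 ± 75.0 FPKM in control. Creld1, the relative of Creld2, and Canx, the partner of calreticulin, were not in the table.

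In ERAD, 6 of 38 other listed genes were in the table and all 6 fell, with a median log2 difference of -1.05. Sel1l, the adaptor that holds HRD1 in its complex, had 29.20, 31.32 and 27.33 FPKM in OGD/R libraries and 150.70, 136.23 and 140.79 FPKM in control libraries (limma log2 difference -2.25 ± 0.10 SE, adjusted p = 3.7e-05). It fell 4.87-fold in group means, beside the 6.85-fold and 10.5-fold differences of Syvn1 and Herpud1, and no test between these genes is given. Selenos, a selenoprotein of the same machinery, had 8.52, 8.64 and 9.22 FPKM in OGD/R libraries and 23.49, 50.25 and 45.09 FPKM in control libraries, with control replicate 1 at 0.493 of the other two. Derl1 and Derl2, derlins of the channel, fell with log2 differences of -1.07 and -0.98 (limma adjusted p = 0.00016 and 0.0018), and Edem1, a lectin that marks glycoproteins for removal, with -1.04 (adjusted p = 0.00015). Selenok, another selenoprotein, fell with -1.03 and a higher adjusted p of 0.011. The ATPase Vcp, which pulls clients out, and Herpud2, the relative of Herpud1, were not in the table.

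Oxidative folding had 2 of 19 listed genes in the table, both lower. Pdia4, a disulfide isomerase, had 53.83, 58.24 and 41.56 FPKM in OGD/R libraries and 264.66, 233.41 and 251.83 FPKM in control libraries, a 4.88-fold fall (limma adjusted p = 7.6e-05). Pdia6 fell 2.28-fold (adjusted p = 0.0017). The glycosylation enzymes Alg2 and Alg5, 2 of 37 genes of translocation and N-glycosylation, fell with log2 differences of -1.14 and -1.05 (adjusted p = 0.00018 and 0.00042 in limma). In ER to Golgi transport 3 of 31 genes were in the table and fell, namely the coat protein Sec24d, the cargo receptor subunit Mcfd2 and Arfgap3, with -1.11, -1.09 and -0.96 (limma adjusted p = 0.00019, 0.0027 and 0.00022). Among 13 genes of ER calcium handling the pump Atp2a2 fell to 89.7 ± 10.3 FPKM in OGD/R, against 176 ± 8.59 FPKM in control, and Stim2, a calcium sensor of the ER membrane, rose to 8.05 ± 0.343 FPKM in OGD/R, against 2.88 ± 0.124 FPKM in control (SD, n = 3; limma adjusted p = 0.00037 and 9.9e-05). Atp2a3, a related pump, was at 0.19 ± 0.0557 FPKM in OGD/R and 1.37 ± 0.0833 FPKM in control and was under the expression minimum. Cdnf, related to Manf, had 0.163 ± 0.0907 FPKM in OGD/R and 0.50 ± 0.294 FPKM in control, overlapped between groups and was not tested either. None of the 17 listed cytosolic heat shock chaperones was in the table.

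Of the transcription factors that act upstream, Xbp1 had 41.68, 38.69 and 39.16 FPKM in OGD/R libraries and 85.15, 81.32 and 85.01 FPKM in control libraries, a 2.10-fold fall (limma adjusted p = 0.00012). It was 1 of 4 genes in the table from a list of 15 sensors and factors. The others were Creb3 and Nfe2l1, factors made as ER membrane proteins, and the ER membrane gene Wfs1, which fell with log2 differences of -0.91, -1.09 and -1.09 (limma adjusted p = 0.00027, 0.00012 and 0.00059). The sensor genes Ern1, Eif2ak3 and Atf6 were not in the table and are not analysed here. The spliced form of Xbp1 cannot be told from a value per gene.

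The PERK arm and the integrated stress response had 11 of 34 listed genes in the table, 10 lower and 1 higher, with a median log2 difference of -1.57. Ddit3, the stress factor CHOP, had 4.43, 4.62 and 10.91 FPKM in OGD/R libraries and 100.29, 189.53 and 198.77 FPKM in control libraries, a 24.5-fold fall (limma adjusted p = 0.00013), and Ppp1r15a, or GADD34, fell 7.40-fold (adjusted p = 0.00011). Gadd45a, Trib3 and Atf3, a growth arrest gene, a pseudokinase and a stress-induced factor, fell 5.35-fold, 4.25-fold and 3.65-fold (limma adjusted p = 0.0019, 7.3e-05 and 0.00016). Nupr1, a small stress-induced nuclear protein, had 2.03, 2.82 and 8.31 FPKM in OGD/R libraries and 5.71, 18.67 and 20.18 FPKM in control libraries, so the groups overlapped (limma adjusted p = 0.034). Without OGD/R replicate 1 or 2 its adjusted p was 0.109 and 0.0969, and without control replicate 2 or 3 it was 0.0951 and 0.104. Slc7a11, the cystine transporter, rose to 31.7 ± 3.06 FPKM in OGD/R, against 15.3 ± 1.44 FPKM in control (SD, n = 3; limma adjusted p = 0.00031). Ddit3, Ppp1r15a, Gadd45a and Atp2a3 were the 4 listed genes whose group means differed by at least the smallest fold among the 5 genes, 5.26-fold.

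**Figure D5:**
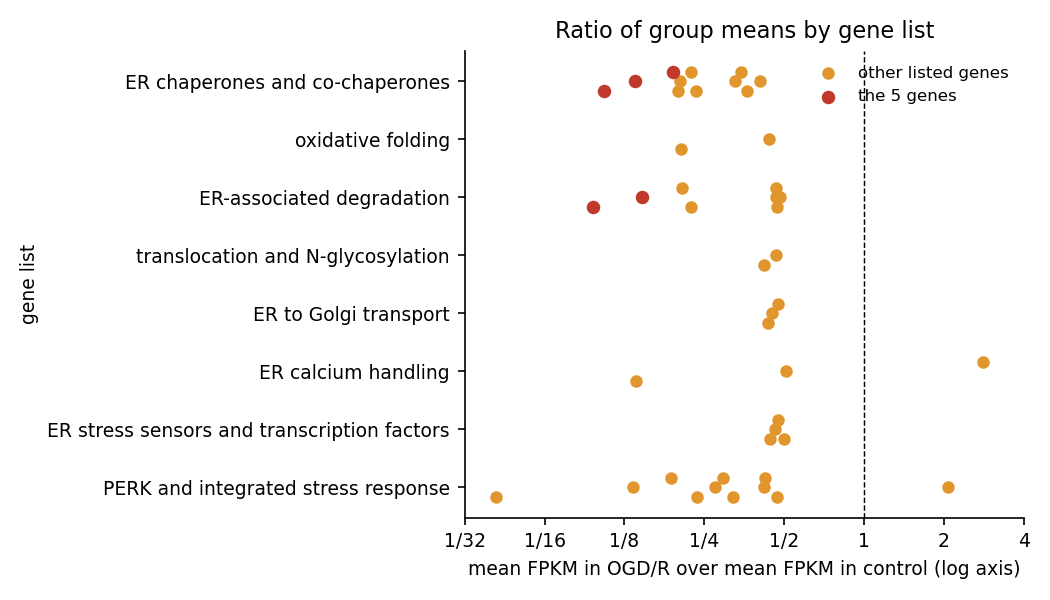
Mean FPKM in OGD/R over mean FPKM in control (x, log axis) for the listed genes in the table, by list; red points are the 5 genes and the dashed line marks equal means. The points lie left of the line except Stim2, at 2.80, and Slc7a11, at 2.07, and the 5 genes lie left of the other chaperone and degradation genes. Sdf2l1, at 0.190, lies close to Manf, at 0.199. The 5 genes were picked with this difference known, so nothing is read from their place.

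The steps between low FPKM values, read with exon lengths from GENCODE M21, corresponded to 8030000 to 8666000 counted units per OGD/R library and 7627000 to 8246000 per control library, with 96.9% to 99.6% of low values then whole. By this scale the counts behind the 5 genes ran from 161 units, for Creld2 in OGD/R replicate 2, to 59057 units, for Hspa5 in control replicate 2. Of 15 markers of microglia and macrophages 2 were in the table, Cx3cr1 and P2ry12, with a summed level of 2.81 to 3.17 FPKM in OGD/R and 0.79 to 1.08 FPKM in control, and the other 13 are not analysed here. Of 21 markers of other cell types 3 were in the table. Tubb3, for neurons, was at 0 to 0.37 FPKM in OGD/R and 0.56 to 1.17 in control, Cspg4, for the oligodendrocyte lineage, at 0 to 0.03 FPKM in OGD/R and 0.08 to 0.09 in control, and Vwf, for endothelium, at 1.10 to 1.74 FPKM in OGD/R and 3.22 to 4.40 in control. None of these was at 0 in all 6 libraries, and their part in the results was not tested.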

How the data were processed

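RNA of 6 Bv2 samples was sequenced as paired reads. The authors' deposited values are FPKM, printed to 2 decimals, with 1 column per sample in 1 table. Their build was GRCm38, according to the submitters' processing notes. Aligner, counter, annotation and the way genes were picked for deposit were not given in the sources used here. Gene IDs were matched to GENCODE M21 (GRCm38), which placed 1227 of 1228. Exon length is the union of a gene's exons.

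The members and gene lists were chosen with earlier results of these data known. Genes with a mean of at least 1 FPKM were tested on log2(FPKM + 1), which understates the change of low genes, with limma 3.58.1 in R 4.3.3 (a group term alone, eBayes trended on the mean level, two-sided p-values, Benjamini-Hochberg adjustment over 852 genes) and a threshold of 0.05. The 5 genes were in that fit, and no p-value of theirs is given. Counted units were sought as the library size at which FPKM values under 15 units became whole within rounding error plus 0.03 units; a unit may or may not be a read pair. Named genes of a list are all of its genes in the table, or the 6 with the largest log2 difference among tested ones where more than 6 were there, and any that went against the list. Motifs were searched on both strands of the 250 bases before each RefSeq start site. Python 3.11.15, pandas 2.3.3, numpy 2.4.6 and matplotlib 3.10.9 did the rest.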

Additional observations from a re-analysis of the deposited data

How the results depend on the processing

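Values of the 5 genes kept their direction under each setting run (pseudocounts of 0.1 and 0.01, equal library medians, a replicate block, voom on recovered units, and each library left out). These genes were picked on this difference and their groups did not overlap, so leaving out a library could not reverse it. By design the replicate block leaves the difference unchanged, and nothing is read from the kept direction. Values moved by less than the replicate SD except for Syvn1. Its log2 difference was -2.61, and -2.78 both with a pseudocount of 0.01 and with voom, which add less to its low OGD/R values. Genes called lower and higher were 432 and 397 of 852. With a minimum of 5 FPKM, where fewer genes were tested, they were 221 and 188. Without any 1 library they were 400 to 445 and 384 to 391. The listed genes called lower were 35, and 34 to 35 without any 1 library. With no filter on low values the genes of ER calcium handling called lower were 2 in place of 1, since Atp2a3 was then tested. Of 518 values of the 37 single listed genes, 514 kept direction and side of the threshold, and the other 4 were those of Nupr1. Whether replicate numbers pair the samples cannot be told. Deviations of libraries with 1 number had correlations of 0.428, -0.349 and 0.375, and those of libraries with different numbers ran from -0.628 to 0.479. Deviations within a group are tied to each other, so these correlations cannot decide it. With the replicate block 440 genes were lower and 395 higher. Cdnf and Atp2a3 had mean values under the 1 FPKM set for testing.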
